A study of Homo sapiens with 6 samples.

Results

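C-to-U edits were examined on the mRNAs of 10 RNA-binding proteins that regulate splicing or mRNA stability: RBFOX2 itself, QKI, PTBP1, PTBP2, PTBP3, MBNL1, CELF1, ELAVL1, TIA1 and TIAL1. Members were chosen by name, and a listed edit belonged to a member when its isoform carried that gene name in GENCODE release 44. The members held 2391 of 839700 listed pairs of isoform and edited position over the 6 libraries, on 18 of 9831 isoforms. PTBP3 had no listed edit in any library, so 9 of the 10 genes are described by values. Of the member entries, 16 lay on the strand opposite to their isoform and 1 outside its exons, and the other 2374 were used, at 1596 distinct edited Cs. All of these positions were a C of the edited strand in hg38 (100%).

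The libraries came from HEK293T cells (a human embryonic kidney line, given as HEK293XT in the cell line field of the labels). Per the study's methods for HEK293T cells, cells were fixed on slides, and RNA was depleted of ribosomal RNA after editing in the cell overnight. RBFOX2-INSCRIBE (replicates 1 and 2) received a rabbit antibody against RBFOX2 and then Apo1-Nb, a purified fusion of the cytosine deaminase APOBEC1 to a nanobody that recognises rabbit IgG. The enzyme-only control (replicates 2 and 3 in the sample titles) received Apo1-Nb without antibody, and the buffer-only control (replicates 1 and 2) received neither, so that all groups share the fixation, the buffer and the incubation. Per the study's methods, replicates were separate wells of these cells on separate slides, and its figure legends for short-read libraries call them technical replicates. Whether the wells were seeded from 1 culture is not given, so p-values measure the spread between such wells. PacBio full-length reads were assigned to isoforms by the authors, and for every edited C of an isoform the deposited value is the share of its reads that carried the edit. No read numbers accompany these shares, so depth is not known directly. A share can be no lower than 1 edited read over the reads at that position, so very low shares can be listed only where reads are many. A site or isoform without an entry may have been unedited or unread. More RNA of a gene and more editing of it therefore cannot be told apart by these counts.

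RBFOX2 binds UGCAUG and the shorter GCAUG through a single RNA recognition motif, mostly in introns near regulated exons and in 3′ UTRs. Regulators of splicing often bind the transcripts of one another and of their own genes, and many such contacts set the level of the protein through exons that expose the mRNA to decay or through the 3′ UTR. The mRNAs read here are spliced, so contacts in introns are largely outside what these libraries can show.

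ELAVL1, QKI, CELF1 and PTBP1 held most of the edits, TIA1 held fewer, and TIAL1, MBNL1, PTBP2 and RBFOX2 were sparse. Together the members had 620 and 590 edited Cs in RBFOX2-INSCRIBE, 227 and 398 in enzyme-only replicates 2 and 3, and 219 and 218 in buffer-only. These numbers were 0.309% and 0.287% of all edited Cs of the library in RBFOX2-INSCRIBE, 0.264% and 0.259% in enzyme-only, and 0.301% and 0.305% in buffer-only. The members' share of the library thus overlapped between RBFOX2-INSCRIBE and buffer-only, and both buffer-only libraries were above RBFOX2-INSCRIBE replicate 2, although the RBFOX2-INSCRIBE libraries held more edited Cs of the members than any control library. All genes together had 200663 and 205830 edited Cs in RBFOX2-INSCRIBE, 86019 and 153740 in enzyme-only, and 72723 and 71421 in buffer-only, and enzyme-only replicate 2 was below enzyme-only replicate 3 in every member tested below. Of 5 genes fixed as markers of HEK293T cells, VIM, KRT18, NEFL and NEFM had listed edits and KRT8 had none, and none of 5 genes that mark hepatocytes, leukocytes, erythroid cells, kidney tubules and podocytes had any. A listed edit shows only that the RNA was read and edited.

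**Figure D1:**
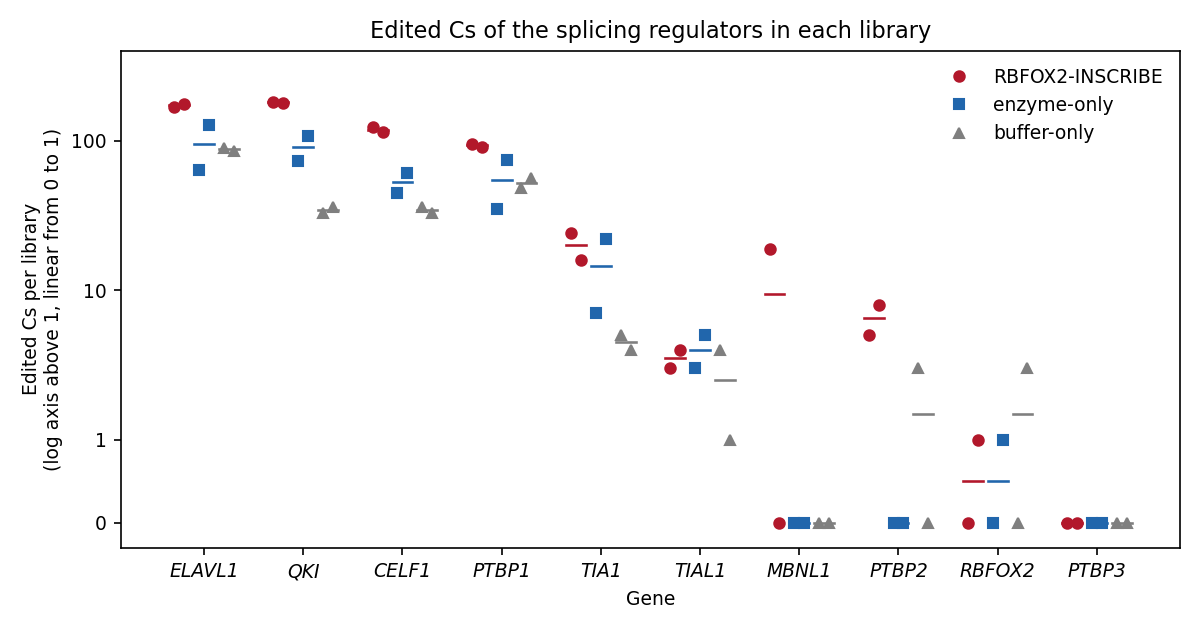
Number of distinct edited Cs (vertical axis, logarithmic above 1) of each of the 10 genes in each of the 6 libraries, with short lines at the group means. The RBFOX2-INSCRIBE libraries sit above all control libraries for QKI, ELAVL1, CELF1 and PTBP1, as they do for the total over all genes. They overlap the enzyme-only libraries for TIA1, and all genes from TIAL1 rightwards have 19 or fewer edited Cs per library.

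With no scaling between libraries, no member passed the test against enzyme-only, and every member that could be tested was higher than in buffer-only. The test was limma on log2(edited Cs + 0.5) per gene, with Benjamini-Hochberg adjustment over all genes that averaged 5 or more edited Cs, which only QKI, CELF1, ELAVL1, PTBP1 and TIA1 of the members reached. Against enzyme-only, 0 of these 5 were called, beside 0.531% of all 5088 genes tested (27 genes, all higher in RBFOX2-INSCRIBE, and 930 genes at an unadjusted p under 0.05, none of them a member). Their log2 differences lay between 0.63 and 1.17 with a median of 0.93, where the median over all genes tested was 0.85. Against buffer-only, 5 of 5 were higher, beside 63.9% of 4804 genes tested, and their log2 differences lay between 0.84 and 2.38 with a median of 1.77, where the median over all genes was 1.54. With RBFOX2-INSCRIBE replicate 1 or 2 left out, 0 of all genes passed against buffer-only (1751 and 1712 at an unadjusted p under 0.05), and the log2 differences of the members then lay between 0.81 and 2.37 without replicate 1 and between 0.87 and 2.38 without replicate 2. Between enzyme-only and buffer-only 0 of 5 were called, beside 0.0238% of 4209 genes (1 gene, and 572 at an unadjusted p under 0.05), with a median of 0.60 for the members and 0.69 for all genes.

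The libraries differ in how many edits were listed for every gene, so the same comparison was made after scaling each library to the same total of edited Cs, which brought the median over all genes against buffer-only from 1.54 to 0.10. After scaling, 14.1% of genes were called against buffer-only (395 higher and 282 lower, where without scaling 3067 were higher and 4 lower). QKI remained higher by 0.89 (limma adjusted p = 0.00196), PTBP1 and ELAVL1 were now lower, with log2 differences of -0.65 and -0.51 (limma adjusted p = 0.0277 and 0.0187), and CELF1 (0.28, limma adjusted p = 0.369) and TIA1 (0.61, limma adjusted p = 0.497) were not called. Against enzyme-only the scaled differences of the 5 members lay between -0.16, for TIA1, and 0.35, for CELF1, and none was called.

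**Figure D2:**
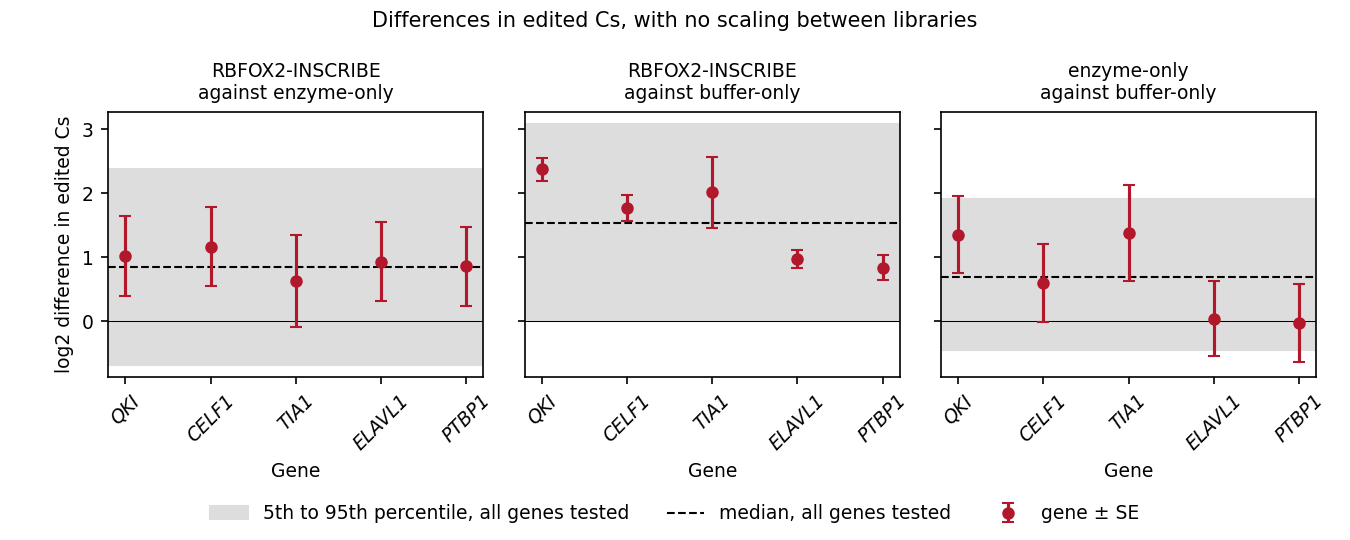
log2 difference in edited Cs (vertical axis, with standard error) of the 5 members that could be tested in each comparison, with no scaling between libraries. The shaded band is the 5th to 95th percentile and the dashed line the median of all genes tested: against enzyme-only each error bar of the 5 members crosses the median, and against buffer-only QKI, TIA1 and CELF1 lie above the median at 2.38, 2.01 and 1.77 and ELAVL1 and PTBP1 below it at 0.98 and 0.84, which turned to -0.51 and -0.65 after scaling.

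QKI, a STAR-family protein that controls splicing and mRNA stability, had 182 and 180 edited Cs in RBFOX2-INSCRIBE, 73 and 108 in enzyme-only, and 33 and 36 in buffer-only. The groups did not overlap, and the RBFOX2-INSCRIBE libraries differed by only 2 edited Cs. The log2 difference was 2.38 ± 0.18 (SE, 2 libraries against 2) from buffer-only (limma adjusted p = 1.38e-10) and 1.02 ± 0.62 from enzyme-only (limma adjusted p = 0.337). Per 10000 edited Cs of the library, QKI had 9.07 and 8.75 in RBFOX2-INSCRIBE, 8.49 and 7.02 in enzyme-only, and 4.54 and 5.04 in buffer-only, so its share of the library was higher in all libraries that had received the enzyme. Over its edited sites the median fraction edited was 0.496% and 0.526% in RBFOX2-INSCRIBE, 0.402% and 0.346% in enzyme-only, and 0.319% and 0.309% in buffer-only. Leaving out 1 enzyme-only library moved the difference from enzyme-only to 0.74 (replicate 2 left out) or 1.30 (replicate 3 left out). The medians over all genes tested were then 0.35 and 1.30, so in the latter case QKI lay at the median. Only 1 enzyme-only library remains in each of these fits, so the spread of that group is not measured. With RBFOX2-INSCRIBE replicate 1 or 2 left out, the difference was 1.02 and 1.03, where the medians over all genes tested were 0.89 and 0.85.

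QKI (ENSG00000112531, chr6:163414000-163578592 of hg38, plus strand) had listed edits on 2 of its 17 annotated isoforms, on both in all 6 libraries. QKI-203 (ENST00000361752) is protein coding, with a 3′ UTR of 7885 nt, and had 93 and 92 edited Cs in RBFOX2-INSCRIBE, 33 and 44 in enzyme-only, and 17 and 20 in buffer-only. QKI-204 (ENST00000361758), which is annotated as a target of nonsense-mediated decay, had 111 and 115, 41 and 74, and 16 and 16. As editsC, the percent of the Cs of the isoform that were edited, QKI-203 stood at 5.22% ± 0.04 (SD, n = 2) in RBFOX2-INSCRIBE, 2.17% ± 0.44 in enzyme-only and 1.04% ± 0.12 in buffer-only. QKI-204 stood at 8.28% ± 0.21, 4.21% ± 1.71 and 1.17% with no difference between the buffer-only libraries. The log2 difference in editsC from buffer-only was 2.30 for QKI-203 (limma adjusted p = 0.00179) and 2.78 for QKI-204 (limma adjusted p = 0.000591), neither passed after scaling (limma adjusted p = 0.223 and 0.0809), and neither passed against enzyme-only (limma adjusted p = 0.320 and 0.368).

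Nearly all edits assigned to the decay isoform of QKI lay in sequence that it shares with QKI-203. The isoforms share 957 Cs, of which QKI-204 had 109 and 115 edited in RBFOX2-INSCRIBE and QKI-203 had 74 and 84. The 408 Cs found only in QKI-204 held 2 and 0 edits in these libraries and none in a control library, and its annotated 5′ UTR and coding sequence held none in any library. The 814 Cs found only in QKI-203 held 19 and 8 edits in RBFOX2-INSCRIBE, 2 and 0 in enzyme-only and none in buffer-only. The same C was edited on both isoforms at 22 and 27 positions in RBFOX2-INSCRIBE, at 1 and 10 in enzyme-only and at none in buffer-only.

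In QKI-203 the coding sequence (245 Cs) had 26 and 17 edited Cs in RBFOX2-INSCRIBE, 11 and 13 in enzyme-only, and 8 and 11 in buffer-only. Its 3′ UTR (1335 Cs) had 67 and 75 in RBFOX2-INSCRIBE, 22 and 30 in enzyme-only, and 7 and 9 in buffer-only. The groups did not overlap between RBFOX2-INSCRIBE and the controls in either region. The last 4384 bases of QKI-203, from position 5001 of the isoform, held 17 and 7 edits in RBFOX2-INSCRIBE, 1 and 0 in enzyme-only, and none in buffer-only.

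The exons of the 2 QKI isoforms carry 7 distinct copies of UGCAUG, all in the 3′ UTR, and 6 of the 7 had an edited C within 50 nt in both RBFOX2-INSCRIBE libraries. Around 4 of those 6 no control library had an edited C, and these 4 copies lie only in QKI-203. These counts are not independent, since 3 of the 4 lie within 116 nt and their windows overlap, and together the 3 copies had 4 distinct edited Cs near them in RBFOX2-INSCRIBE replicate 1 and 2 in replicate 2. Around the copy at chr6:163571170-163571175, present in both isoforms, 5 and 3 Cs were edited in RBFOX2-INSCRIBE, 1 and 0 in enzyme-only, and 1 and 1 in buffer-only. Around the copy at chr6:163571938-163571943 there were 9 and 3, 2 and 4, and 2 and 0. Of all edited Cs of QKI, 10.4% and 5% lay near a copy in RBFOX2-INSCRIBE, 4.11% and 3.70% in enzyme-only, and 9.09% and 2.78% in buffer-only. By this share RBFOX2-INSCRIBE overlapped buffer-only. The share of copies over all genes with such patterns is not given here. Of the sites near a copy that were in both RBFOX2-INSCRIBE libraries and in neither enzyme-only library, the one with the highest mean edit fraction was at chr6:163576645, 7 nt 3′ of the motif, with 5.56% and 4.17% in RBFOX2-INSCRIBE and no entry in any control library. Sites near these copies listed in a single library reached 15.4%. Choosing by the highest fraction can favour positions with few reads, and read numbers are not given. The site at chr6:163576645 lies in the last 4384 bases of QKI-203. These bases held 1 and 0 edits in enzyme-only and none in buffer-only, so the missing control entries there say little. The second of the recurrent sites, 48 nt from the first copy, at chr6:163571223, had 0.240% and 1.18%, again without an entry in a control library. These sites are shown as 30 bases of the RNA, 5′ to 3′, with the motif where it falls in the window and the edited C in capitals (hg38, plus strand, chr6:163576625-163576654 and chr6:163571208-163571237).
QKI, 7 nt from the motif: cggagaacUGCAUGaccguaCaugaaaugc
QKI, 48 nt from the motif: auuucaaaaaguauuCaaaauuugauaugc
Around the 2 copies that both isoforms share, the Cs of the window edited in at least 1 RBFOX2-INSCRIBE library, control libraries disregarded, are in capitals below with the motif (chr6:163571158-163571187 and chr6:163571926-163571955), and 3 of 7 and 4 of 6 Cs were edited.
QKI, first shared copy: gaugaugcaucaUGCAUGaaCcuuCgguCa
QKI, second shared copy: aauaCaaguuaaUGCAUGuuaCuCaguCgc

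CELF1, a protein that binds GU-rich RNA and acts on splicing, translation and mRNA decay, had 123 and 114 edited Cs in RBFOX2-INSCRIBE, 45 and 61 in enzyme-only, and 36 and 33 in buffer-only. The RBFOX2-INSCRIBE libraries were above all controls. The log2 difference was 1.77 ± 0.20 (SE, 2 libraries against 2) from buffer-only (limma adjusted p = 5.67e-08) and 1.17 ± 0.62 from enzyme-only (limma adjusted p = 0.289), the largest of the 5 tested members against enzyme-only. Dropping enzyme-only replicate 2 moved the latter to 0.95, where the median over all genes tested was 0.35. With replicate 3 dropped instead it was 1.39, and that median was 1.30. Per 10000 edited Cs of the library, CELF1 had 6.13 and 5.54 in RBFOX2-INSCRIBE, 5.23 and 3.97 in enzyme-only, and 4.95 and 4.62 in buffer-only.

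CELF1 (ENSG00000149187, chr11:47465933-47565569, minus strand) was listed with 3 of 22 annotated isoforms, all protein coding. CELF1-201 (ENST00000310513) had 72 and 62 edited Cs in RBFOX2-INSCRIBE, 22 and 51 in enzyme-only, and 23 and 17 in buffer-only. CELF1-204 (ENST00000395290), which has a longer 3′ UTR (6201 nt against 3001 nt), had 55 and 58 in RBFOX2-INSCRIBE, 16 and 0 in enzyme-only, and 11 and 17 in buffer-only. In enzyme-only replicate 3 CELF1-204 thus had no entry at all while CELF1-201 had 51. CELF1-214 (ENST00000531165) had 7 and 2, 7 and 10, and 3 and 2, with overlapping groups and a log2 difference in editsC of -1.04 from enzyme-only (limma adjusted p = 0.544). The log2 difference of CELF1-204 from enzyme-only was 4.31 ± 1.34 (SE, limma adjusted p = 0.228), rank 40 from the top of 5717 isoforms tested. Its size rested on the empty library: without enzyme-only replicate 3 it was 1.79. The difference passed with a pseudocount of 1 (limma adjusted p = 0.0128) and with a minimum mean of 20 edited Cs (limma adjusted p = 0.0227). It did not pass after scaling (3.53, limma adjusted p = 0.651), with a pseudocount of 0.1 (limma adjusted p = 0.362) or with a minimum of 1 (limma adjusted p = 0.415). Against enzyme-only 0 of 9 member isoforms were called, beside 0.0525% of the isoforms tested (3 isoforms, and 928 at an unadjusted p under 0.05). Against buffer-only 7 of 8 were called, all higher in RBFOX2-INSCRIBE, beside 60.1% of 5362 isoforms, CELF1-201 and CELF1-204 among them (log2 differences 1.73 and 2.01, limma adjusted p = 0.00327 and 0.00715). After scaling, CELF1-201 and CELF1-204 were no longer called (0.24 and 0.53, limma adjusted p = 0.656 and 0.484).

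The edits of CELF1 lay almost entirely in the 3′ UTR. In CELF1-201 the 602 Cs of the 3′ UTR had 71 and 59 edits in RBFOX2-INSCRIBE, 20 and 47 in enzyme-only, and 20 and 15 in buffer-only, while the 372 Cs of the coding sequence had 1 and 3, 2 and 4, and 3 and 2. RBFOX2-INSCRIBE was above all controls in the 3′ UTR and overlapped them in the coding sequence, and the controls were not separate from each other in either. In CELF1-204 the coding sequence had 0 and 1 edits in RBFOX2-INSCRIBE and none in the controls.

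CELF1 has a single UGCAUG in its listed exons, at chr11:47468005-47468010 in the 3′ UTR shared by CELF1-201 and CELF1-204. Of 26 Cs within 50 nt of it, 11 and 12 were edited in RBFOX2-INSCRIBE, 0 and 3 in enzyme-only, and 3 and 0 in buffer-only. The number in each RBFOX2-INSCRIBE library was above that in every control library. Of all edited Cs of CELF1, 8.94% and 10.5% lay that close in RBFOX2-INSCRIBE, 0% and 4.92% in enzyme-only, and 8.33% and 0% in buffer-only. By this share, RBFOX2-INSCRIBE replicate 1 was close to buffer-only replicate 1, where 3 of 36 edits lay near the motif. At 7 of the 26 Cs, between 30 nt 5′ and 45 nt 3′ of the motif, both RBFOX2-INSCRIBE libraries had an edit and no control library did. The highest of them, at chr11:47467986, 19 nt 3′ of the motif, had 2.01% and 1.2%. Another, 42 nt from the motif at chr11:47467963, had 0.671% and 1.81%. The RNA of both windows is given 5′ to 3′, with the edited C in capitals and, in the first window, the motif, which lies outside the second (minus strand, chr11:47467983-47468012 and chr11:47467949-47467978).
CELF1, 19 nt from the motif: uuUGCAUGuuuccugcuguuucuucaCacc
CELF1, 42 nt from the motif: uauauaucaccuucaCcucucuguuuucua

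ELAVL1 (HuR), which binds AU-rich and U-rich elements and stabilises many mRNAs, had 169 and 176 edited Cs in RBFOX2-INSCRIBE, 64 and 127 in enzyme-only, and 90 and 85 in buffer-only. The RBFOX2-INSCRIBE libraries were above all controls, but enzyme-only replicate 2 lay below both buffer-only libraries. The log2 difference from buffer-only was 0.98 ± 0.14 (SE, 2 libraries against 2, limma adjusted p = 2.42e-06). From enzyme-only it was 0.93 ± 0.62 (limma adjusted p = 0.371). Dropping enzyme-only replicate 3 moved the latter to 1.42, where the median over all genes tested was 1.30. With replicate 2 dropped instead it was 0.44, and that median was 0.35. The difference from buffer-only changed sign with the scaling, as given above: per 10000 edited Cs of the library ELAVL1 had 8.42 and 8.55 in RBFOX2-INSCRIBE, 7.44 and 8.26 in enzyme-only, and 12.4 and 11.9 in buffer-only. The medians of its listed edit fractions were the lowest of the members, at 0.186% and 0.155%, 0.180% and 0.108%, and 0.096% and 0.106%. Its lowest listed fractions in the same order were 0.093% and 0.077%, 0.127% and 0.088%, and 0.080% and 0.084%. The lowest fraction that can be listed depends on the number of reads, so these medians do not rank the members by rate of editing.

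ELAVL1 (ENSG00000066044, chr19:7958573-8005659, minus strand) was listed with 1 of 5 annotated isoforms, the protein-coding ELAVL1-201 (ENST00000407627), so its counts are those of the gene. Its editsC of 12.1% ± 0.35 (SD, n = 2) in RBFOX2-INSCRIBE was the highest of the 18 isoforms, with 6.68% ± 3.12 in enzyme-only and 6.12% ± 0.25 in buffer-only. The regions of this mRNA differed. In the 3′ UTR (1095 Cs) there were 134 and 128 edits in RBFOX2-INSCRIBE, 37 and 79 in enzyme-only, and 50 and 42 in buffer-only. In the coding sequence (261 Cs) there were 33 and 39, 23 and 38, and 35 and 38, so that all 3 groups overlapped. In the 5′ UTR (74 Cs) there were 2 and 9, 4 and 10, and 5 and 5.

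ELAVL1 has 2 copies of UGCAUG, both in the 3′ UTR, and the libraries differed more around one of them. Around the copy nearer the 3′ end (chr19:7962695-7962700) 13 and 16 of 32 Cs were edited in RBFOX2-INSCRIBE, 3 and 8 in enzyme-only, and 6 and 3 in buffer-only. Around the copy nearer the stop codon (chr19:7962873-7962878) 7 and 7 of 35 Cs were edited in RBFOX2-INSCRIBE, 4 and 4 in enzyme-only, and 6 and 6 in buffer-only. Of all edited Cs of ELAVL1, 11.8% and 13.1% lay near either copy in RBFOX2-INSCRIBE, 10.9% and 9.45% in enzyme-only, and 13.3% and 10.6% in buffer-only. At the copy nearer the 3′ end, 7 Cs were edited in both RBFOX2-INSCRIBE libraries and in neither enzyme-only library, but 3 of them had an entry in at least 1 buffer-only library. The site with the highest mean fraction, 34 nt from that copy at chr19:7962661, had 0.094% and 0.778% in RBFOX2-INSCRIBE and no entry in the controls, and the next, 5 nt 5′ of the motif at chr19:7962705, had 0.282% and 0.234%, with 0.081% in buffer-only replicate 1. Both windows are given with the motif where it is present and the edited C in capitals (minus strand, chr19:7962647-7962676 and chr19:7962685-7962714).
ELAVL1, 34 nt from the motif: ggauacuguuguucaCgauaauuucucccg
ELAVL1, 5 nt from the motif: uucuguccaCacauUGCAUGcacagcgccc
For comparison of the copies, the 30 bases around each are given with the motif and every C edited in at least 1 RBFOX2-INSCRIBE library in capitals (chr19:7962683-7962712 and chr19:7962861-7962890), and 7 of 13 and 3 of 10 Cs of the windows were edited.
ELAVL1, copy nearer the 3′ end: CuguCcaCaCauUGCAUGcaCagCgcCcca
ELAVL1, copy nearer the stop codon: ggggCcaCgggcUGCAUGcugggCgggccc

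**Figure D3:**
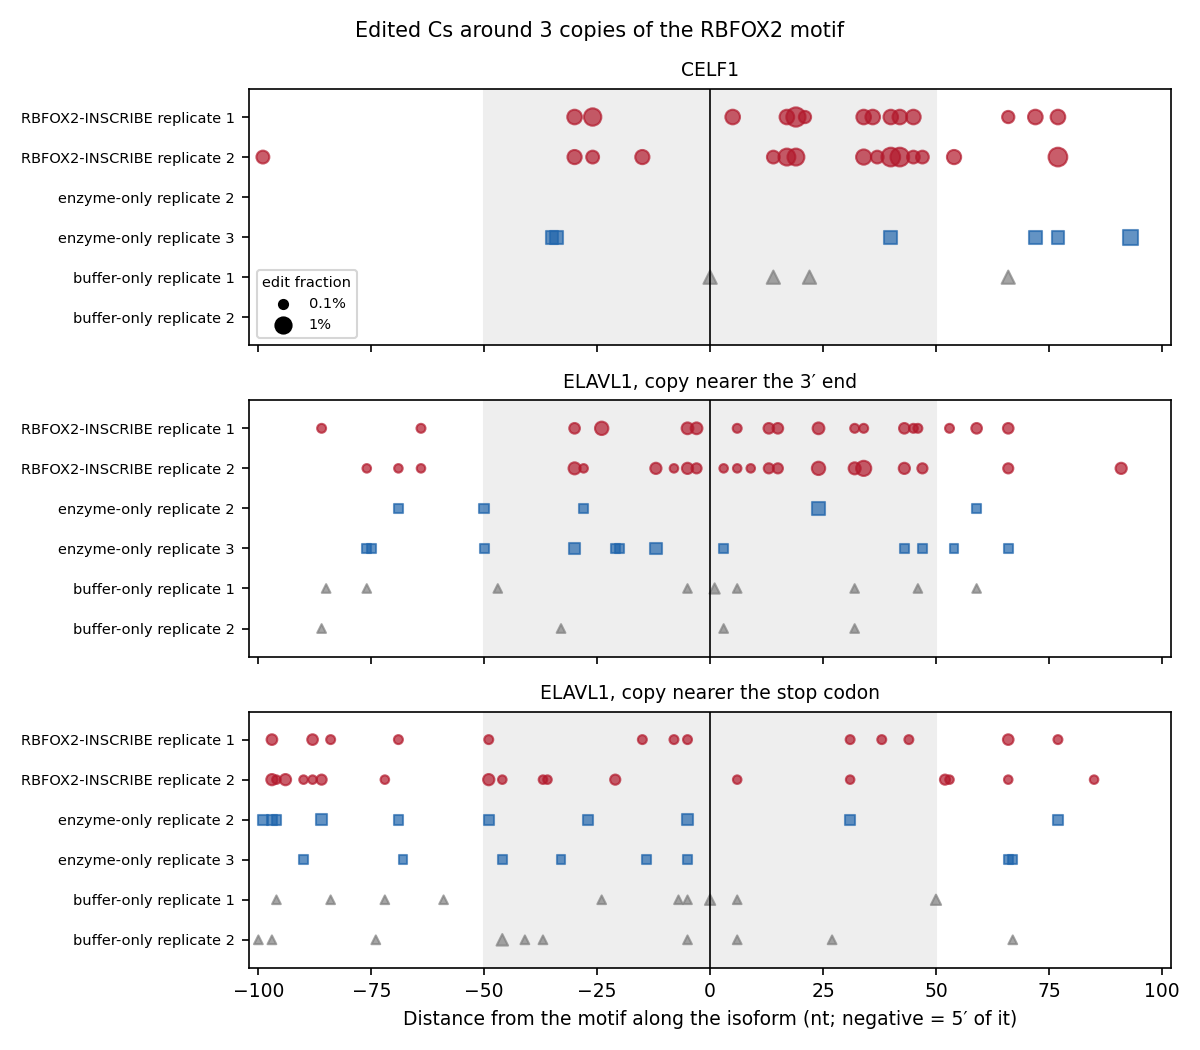
Edited Cs by distance from the motif along the isoform (horizontal axis, nt, negative values 5′ of it, shaded within 50 nt) in each of the 6 libraries, with symbol area growing with the square root of the edit fraction, for the CELF1 copy and both ELAVL1 copies. Around the CELF1 copy 11 and 12 Cs are edited within 50 nt in RBFOX2-INSCRIBE and at most 3 in any control library, whereas around the ELAVL1 copy nearer the stop codon the 6 libraries have between 4 and 7. The counts are not scaled to the edits of each gene. Of the edited Cs of CELF1, 8.94% and 10.5% lie near its copy in RBFOX2-INSCRIBE and at most 8.33% in a control library.

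PTBP1, PTBP2 and PTBP3 are paralogous proteins that bind pyrimidine-rich RNA, and PTBP1 is known to lower PTBP2 by promoting skipping of an exon, which leads to decay of the mRNA. PTBP1 had 95 and 91 edited Cs in RBFOX2-INSCRIBE, 35 and 74 in enzyme-only, and 48 and 56 in buffer-only. The RBFOX2-INSCRIBE libraries were above all controls, and the controls overlapped each other. The log2 difference was 0.84 ± 0.19 (SE, 2 libraries against 2) from buffer-only (limma adjusted p = 0.000604) and 0.86 ± 0.62 from enzyme-only (limma adjusted p = 0.402). Dropping enzyme-only replicate 3 moved the latter to 1.40, where the median over all genes tested was 1.30. With replicate 2 dropped instead it was 0.33, and that median was 0.35. The difference from buffer-only changed sign with the scaling, as for ELAVL1: per 10000 edited Cs of the library PTBP1 had 4.73 and 4.42 in RBFOX2-INSCRIBE, 4.07 and 4.81 in enzyme-only, and 6.60 and 7.84 in buffer-only.

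PTBP1 (ENSG00000011304, chr19:797075-812327, plus strand) was listed with 4 of 24 annotated isoforms. PTBP1-201 (ENST00000349038) had 47 and 51 edited Cs in RBFOX2-INSCRIBE, 22 and 40 in enzyme-only, and 26 and 23 in buffer-only. PTBP1-203 (ENST00000356948), which has 1 exon more, had 51 and 40, 10 and 30, and 21 and 28, and was the member isoform not called against buffer-only (log2 difference in editsC 0.88, limma adjusted p = 0.0525), while PTBP1-201 was (0.99, limma adjusted p = 0.0249). Both of these log2 differences were below 0 after scaling (-0.60 and -0.50). The isoforms share 974 Cs, and the 27 Cs found only in PTBP1-203 held 1 edit in 1 library. Of the rest, the retained-intron isoform PTBP1-210 (ENST00000586944) had 0 and 6, 3 and 6, and 2 and 6 edits with no separation of the groups, and PTBP1-220 (ENST00000635647) had 3 in RBFOX2-INSCRIBE replicate 1 and 1 in buffer-only replicate 1.

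In PTBP1-201 the 425 Cs of the 3′ UTR had 31 and 37 edits in RBFOX2-INSCRIBE, 10 and 22 in enzyme-only, and 12 and 10 in buffer-only, and the 528 Cs of the coding sequence had 16 and 14, 12 and 17, and 14 and 12. As in ELAVL1, RBFOX2-INSCRIBE was above all controls in the 3′ UTR and overlapped them in the coding sequence, and the controls overlapped each other. In PTBP1-203 the coding sequence had 24 and 22, 3 and 19, and 10 and 12, and the 3′ UTR 27 and 18, 7 and 11, and 11 and 16, with RBFOX2-INSCRIBE above the controls in both. Neither of these mRNAs contains UGCAUG in its exons. All 4 copies in PTBP1 lie in the retained-intron isoform, and at most 2 Cs were edited near any of them in a library, RBFOX2-INSCRIBE or control.

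PTBP2 was listed with 1 isoform, PTBP2-211 (ENST00000609116, chromosome 1), which had 5 and 8 edited Cs in RBFOX2-INSCRIBE, none in enzyme-only, and 3 and 0 in buffer-only. All of them lay in its 3′ UTR of 10336 nt, none was found in more than 1 library, and none lay within 50 nt of either of its 2 copies of UGCAUG. Its mean was under the minimum of 5 edited Cs, so it was not tested. The median edit fraction of its sites was 6.25% and 7.29% in RBFOX2-INSCRIBE, with 5.88% the lowest in both libraries. The highest, at chr1:96814866, was 10.5% in replicate 2. PTBP3 (chromosome 9, 8 annotated isoforms) had no entry.

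TIA1 and TIAL1 are related proteins that bind U-rich RNA and assemble stress granules. TIA1 had 24 and 16 edited Cs in RBFOX2-INSCRIBE, 7 and 22 in enzyme-only, and 5 and 4 in buffer-only. RBFOX2-INSCRIBE overlapped enzyme-only and was above buffer-only. The log2 difference was 2.01 ± 0.55 (SE, 2 libraries against 2) from buffer-only (limma adjusted p = 0.0027) and 0.63 ± 0.72 from enzyme-only (limma adjusted p = 0.586), and the latter turned to -0.16 both without enzyme-only replicate 2 and after scaling. TIA1-205 (ENST00000433529) had 11 and 9, 3 and 15, and 3 and 2 edits, and was higher than in buffer-only (log2 difference in editsC 1.82, limma adjusted p = 0.0300), a call lost after scaling (0.47, limma adjusted p = 0.650). TIA1-203 (ENST00000415783) had 1 and 7, 4 and 7, and 2 and 2. TIA1-201 (ENST00000282574) had 14 edits in RBFOX2-INSCRIBE replicate 1 and no entry in any other library.

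The site of the members with the highest mean edit fraction among those found in both RBFOX2-INSCRIBE libraries and in neither enzyme-only library was in the 3′ UTR of TIA1, at chr2:70211789, with 15% and 5.56%. The 15% was listed on TIA1-201 and the 5.56% on TIA1-203, so no isoform had this edit in both libraries. Read numbers are not given, and high fractions can come from few reads. The site had no entry in the controls, and lay 68 nt 5′ of a UGCAUG that all 3 listed TIA1 isoforms share. Near that motif 5 and 0 Cs were edited in RBFOX2-INSCRIBE, 0 and 3 in enzyme-only, and none in buffer-only, so the libraries of both groups disagreed. TIAL1 had 3 and 4 edited Cs in RBFOX2-INSCRIBE, 3 and 5 in enzyme-only, and 4 and 1 in buffer-only, on TIAL1-205 (ENST00000436547) in all 6 libraries and on TIAL1-203 (ENST00000369093) in enzyme-only replicate 2 alone. The groups overlapped, no TIAL1 site was found in more than 1 library, and none lay near UGCAUG.

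MBNL1, a zinc-finger protein that controls developmental splicing, was listed in a single library. MBNL1-202 (ENST00000282488) had 19 edited Cs in RBFOX2-INSCRIBE replicate 1 and no entry in RBFOX2-INSCRIBE replicate 2 or any control. Of the 19, 15 lay in the 3′ UTR, 2 in the coding sequence and 2 in the 5′ UTR, and 6 (31.6%) lay within 50 nt of UGCAUG, where 8.24% of the Cs of the isoform do. The median edit fraction was 4.35% and the lowest 4.17%. With 1 library of 6, MBNL1 shows no replicate agreement, and its mean was under the minimum for the test.

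The mRNA of RBFOX2 itself, RBFOX2-209 (ENST00000438146, chromosome 22), was among the least edited. It had 0 and 1 edited Cs in RBFOX2-INSCRIBE, 0 and 1 in enzyme-only, and 0 and 3 in buffer-only, at 5 different positions. Of the positions, 4 lay in the coding sequence and 1 in the 3′ UTR. None was near either of its 2 copies of UGCAUG, 1 in the coding sequence and 1 in the 3′ UTR. The position in the 3′ UTR, at chr22:35743378, was listed at 100% in buffer-only replicate 2 alone. The isoform has 1684 Cs. Apart from that position its listed fractions were between 4% and 5.56%, where the lowest of ELAVL1 was 0.077%. A fraction as low as that of ELAVL1 can be listed only where reads are many. Whether the few entries of RBFOX2 reflect few reads was not tested.

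Regions were taken over all member isoforms, where a C of several isoforms counts once for each, with no scaling between libraries. Without scaling, RBFOX2-INSCRIBE was above all controls in the 3′ UTRs, and above buffer-only but not enzyme-only in the coding sequences. RBFOX2-INSCRIBE also held more edited Cs over all genes, with 200663 and 205830 against 72723 and 71421 in buffer-only. The regions of all genes are not given here, so these values do not single out the members. Of 12530 Cs of 3′ UTRs, 4.36% and 4.06% were edited in RBFOX2-INSCRIBE, 1.33% and 2.27% in enzyme-only, and 1.08% and 1.04% in buffer-only. Of 5735 Cs of coding sequences, 1.94% and 1.87% were edited in RBFOX2-INSCRIBE, 0.942% and 1.88% in enzyme-only, and 1.34% and 1.38% in buffer-only, so that RBFOX2-INSCRIBE overlapped enzyme-only there. Of 2025 Cs of 5′ UTRs, between 0.198% and 0.593% were edited in any library. The difference between the regions was not tested, since with 2 libraries a group the smallest two-sided exact permutation p for a single value is 0.333.

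**Figure D4:**
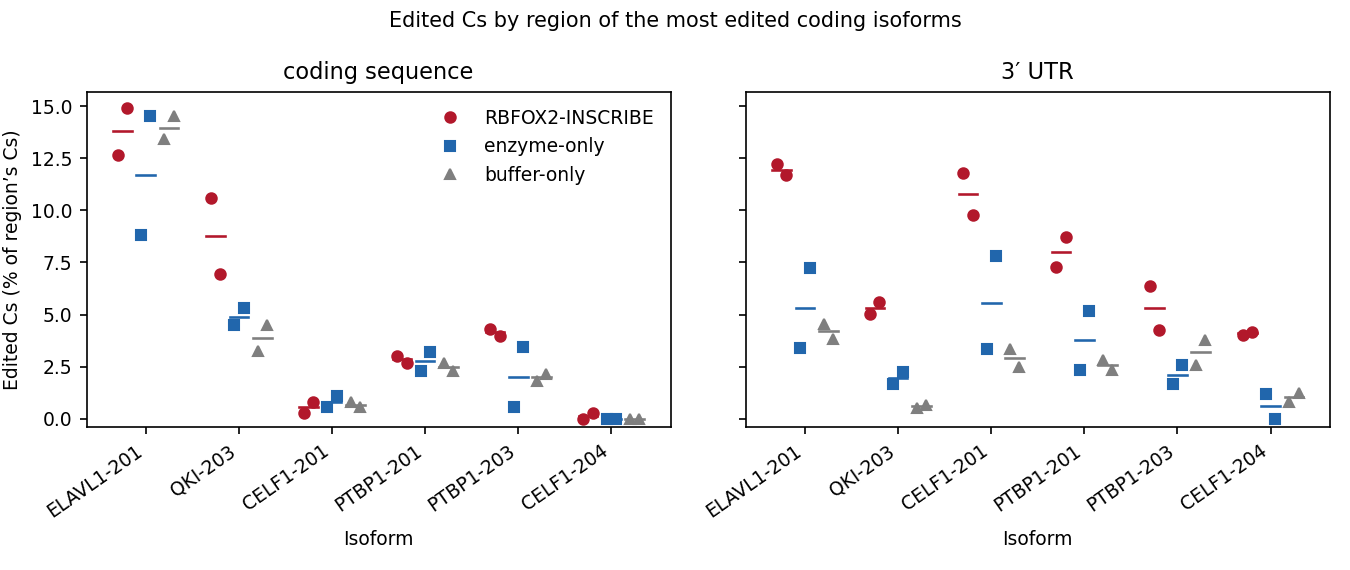
Edited Cs as percent of the Cs of the region (vertical axis) in the coding sequence and the 3′ UTR of the 6 protein-coding isoforms that averaged 30 or more edited Cs over the RBFOX2-INSCRIBE and enzyme-only libraries, each point a library and each short line a group mean. In the 3′ UTR both RBFOX2-INSCRIBE libraries lie above all controls for each isoform, and in the coding sequence they lie above all controls for QKI-203 and PTBP1-203 and overlap controls for ELAVL1-201, CELF1-201, PTBP1-201 and CELF1-204. The share of all isoforms with such a separation is not given here.

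Within 50 nt of UGCAUG lay 61 of 620 (9.84%) and 47 of 590 (7.97%) of the members' edited Cs in RBFOX2-INSCRIBE, 10 of 227 (4.41%) and 24 of 398 (6.03%) in enzyme-only, and 18 of 219 (8.22%) and 13 of 218 (5.96%) in buffer-only. The means were 8.90% ± 1.32 (SD, n = 2), 5.22% ± 1.15 and 7.09% ± 1.60. RBFOX2-INSCRIBE was thus above enzyme-only by 3.68 percentage points without overlap, but overlapped buffer-only. Of all Cs of the members' listed isoforms 4.12% lie that close to UGCAUG. Over all genes, 4.66% and 4.70% of edited Cs in RBFOX2-INSCRIBE and between 2.51% and 2.79% in the controls were near UGCAUG, against 2.61% of all Cs of listed isoforms. With the shorter GCAUG, which includes UGCAUG, the members' difference between RBFOX2-INSCRIBE and enzyme-only was 7.75 percentage points. The motif was searched on the strand of the isoform only.

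The members' share near UGCAUG in buffer-only came mostly from ELAVL1, with 12 of 18 and 9 of 13 of these edits. Without regard to the number of edits, 27 distinct copies of UGCAUG lie in the listed isoforms, 9 of them had an edited C within 50 nt in both RBFOX2-INSCRIBE libraries, and 10 had none in any library. The 9 belong to QKI (6), ELAVL1 (2) and CELF1 (1), and 3 of the QKI copies share edited Cs, as given above. The share of copies over all genes with this pattern is not given here.

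Single sites seldom recurred. Of the 1596 edited Cs, 1099 were found in 1 library, 336 in 2, 145 in 3, 14 in 4 and 2 in 5. No site was in all 6, which the authors' removal of edits common to all samples would also give. Found in both RBFOX2-INSCRIBE libraries were 200 (12.5%), and 117 of these were in neither enzyme-only library (7.33% of member sites, where 4.95% of the sites of all genes had this pattern). By gene these were 43 in ELAVL1, 33 in QKI, 26 in CELF1, 13 in PTBP1 and 2 in TIA1, and 17 of them lay within 50 nt of UGCAUG, 7 in CELF1, 7 in ELAVL1 and 3 in QKI. The opposite pattern, in both enzyme-only libraries and neither RBFOX2-INSCRIBE library, was found at 21 sites (1.32%, and 0.940% over all genes). Both sites found in 5 libraries were in the 3′ UTR of ELAVL1. The site with the highest mean edit fraction over the libraries listing it was found in 1 library alone for each of the 9 genes, from 3.57% for ELAVL1, at chr19:7958945, to 100% for RBFOX2, given above, and for TIAL1, at chr10:119573511. Between them stood PTBP1 with 8.33% at chr19:805525, PTBP2 as given above, QKI with 25% at chr6:163577217, CELF1 with 33.3% at chr11:47483502, TIA1 with 40% at chr2:70210646 and MBNL1 with 50% at chr3:152268980. Of these 9 sites only those of MBNL1, PTBP2 and TIA1 were listed in an RBFOX2-INSCRIBE library. A high fraction at a site listed once can come from few reads, and read numbers are not given.

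The base 5′ of the edited C followed the group. APOBEC1 is known to prefer a C that follows an A or U, and 47.7% of all Cs of the members' isoforms do. Of the members' edited Cs, 72.9% and 71.7% followed an A or U in RBFOX2-INSCRIBE, 57.7% and 65.8% in enzyme-only, and 38.8% and 33.9% in buffer-only. The groups did not overlap, and the values over all genes were 73.5% and 74.8%, 62.0% and 69.2%, and 42.0% and 42.6%. The 4 most edited members showed the same order of group means at different levels. QKI had 81.9% and 81.1% in RBFOX2-INSCRIBE, 69.9% and 77.8% in enzyme-only, and 57.6% and 41.7% in buffer-only. CELF1 had 69.9% and 73.7%, 42.2% and 65.6%, and 33.3% and 21.2%. ELAVL1 had 72.2% and 69.3%, 57.8% and 60.6%, and 42.2% and 42.4%. PTBP1 had 55.8% and 52.7%, 48.6% and 52.7%, and 22.9% and 23.2%, so its RBFOX2-INSCRIBE and enzyme-only libraries barely differed. In buffer-only the most frequent preceding base over the members was G, at 42.5% and 37.2%, where 24.9% of all Cs of the isoforms follow a G.

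**Figure D5:**
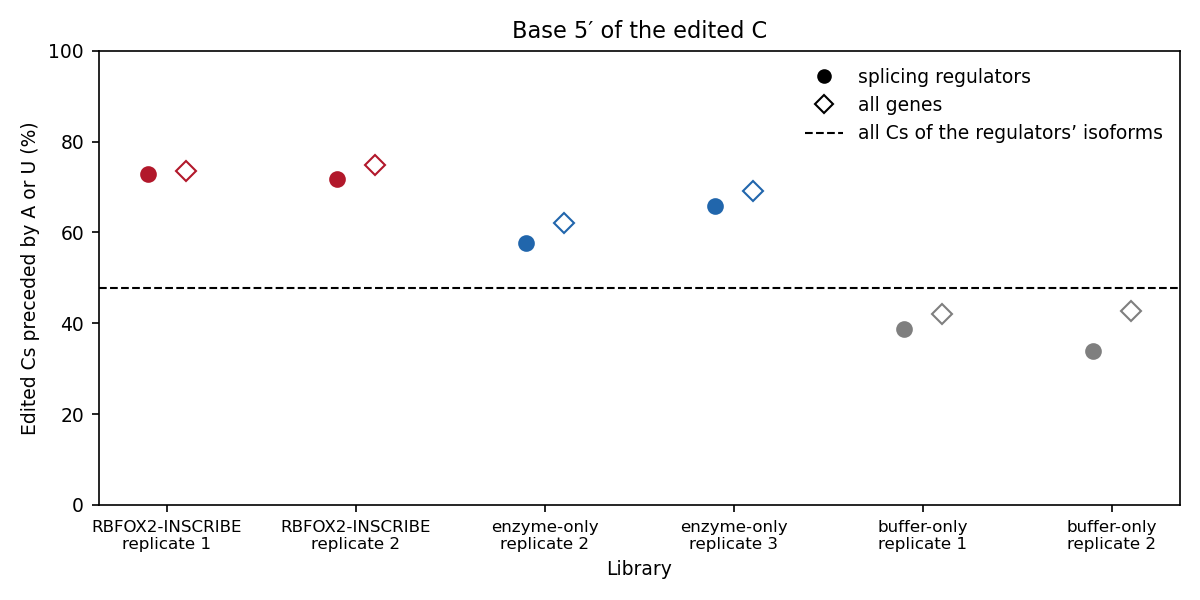
Percent of edited Cs preceded by A or U (vertical axis) in each library, for the splicing regulators (filled) and for all genes (open), with a dashed line at 47.7%, the share among all Cs of the regulators' isoforms. RBFOX2-INSCRIBE lies above 70%, enzyme-only between 57.7% and 69.2%, and buffer-only below the dashed line.

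Of a list of 29 paralogs of the members and other sequence-specific regulators of splicing or mRNA stability, 12 had listed edits. RBFOX1, RBFOX3, MBNL2, MBNL3, CELF3 to CELF6, ELAVL3, ELAVL4, NOVA1, NOVA2, ESRP1, ESRP2, SRRM4, KHDRBS2 and KHDRBS3 had none, many of them proteins known from neurons, muscle or epithelia. Against enzyme-only 0 of the 11 tested were called, beside 0.531% of all genes tested, with a median log2 difference of 0.41 where that of all genes was 0.85. Against buffer-only 8 of 11 were called higher, beside 63.9% of all genes called, with a median of 1.40 where that of all genes was 1.54. These counts are without scaling. CELF2, the closest paralog of CELF1, had 9 and 33 edited Cs in RBFOX2-INSCRIBE, 0 and 1 in enzyme-only, and 5 and 5 in buffer-only, with a log2 difference of 4.36 from enzyme-only (limma adjusted p = 0.209). ELAVL2, a paralog of ELAVL1, had 12 and 4, 12 and 11, and 0 and 4. FUBP1, which binds U-rich and GU-rich RNA, had 199 and 224, 76 and 155, and 54 and 55, more than any member in RBFOX2-INSCRIBE and enzyme-only, and KHDRBS1 (Sam68), a STAR-family relative of QKI, had 109 and 145, 47 and 126, and 59 and 38. FUBP1 was separate from the controls and KHDRBS1 overlapped enzyme-only.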

How the data were processed

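PacBio full-length cDNA reads of 6 HEK293T libraries had been aligned to hg38 with pbmm2 and uniquely assigned to isoforms with IsoQuant by the authors, who identified C-to-U changes with their own scripts and removed edits shared by all samples and dbSNP positions. Each deposited value is a fraction, edited reads over all reads for 1 position of 1 isoform, without read numbers, so no intervals could be given. The annotation used for the long reads is not given in the sources used here, and isoforms were matched to GENCODE release 44.

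Distinct edited Cs on the strand and in the exons of an isoform were counted, per gene by position, with the higher fraction kept where isoforms share a C. Counts were compared with limma 3.58.1 in R 4.3.3 (trend, robust) on log2(edited Cs + 0.5), divided by the Cs of the exons for isoforms, for a mean of at least 5 edited Cs, at an adjusted p of 0.05. The fit was also run on simulated counts without the differences in library totals seen here, and that outcome is not given. Python 3.11.15, numpy 2.4.6 and pandas 2.3.3 were used. UGCAUG was searched within 50 nt along the spliced isoform. Isoforms averaging 5 or more edited Cs over RBFOX2-INSCRIBE and enzyme-only were named, as were sites in both RBFOX2-INSCRIBE and no enzyme-only library near UGCAUG, each member's highest site, and sequences of at most 2 such sites a member. Less edited isoforms, ELAVL1 and QKI motif copies, the TIA1 site 68 nt from a motif, FUBP1, KHDRBS1, CELF2 and ELAVL2 were picked after their values were seen. Members and lists were chosen with earlier results of these data known. Alternatives were the pseudocount, minimum, scaling, strand filter, fraction minimum, 3-group fit, replicate block, motif, window and leaving out each library.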

Additional observations from a re-analysis of the deposited data

How the results depend on the processing

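Counts of called genes and isoforms depended strongly on the settings, and the cause was not tested. Beside a count of 0, the number of features at an unadjusted p under 0.05 is given in parentheses. For genes, RBFOX2-INSCRIBE against enzyme-only, the 27 calls became 14 with a pseudocount of 0.1, 0 (499) with a minimum mean of 20 edited Cs, 0 (454) after scaling to the same total and 3 with edit fractions of at least 0.02, and leaving out 1 library gave 1 to 2460, the highest without enzyme-only replicate 3. Against buffer-only, 3071 became 1890 with a minimum of 20, 677 after scaling and 843 with fractions of at least 0.02, and 0 to 2842 without 1 library, 0 without either RBFOX2-INSCRIBE library. For enzyme-only against buffer-only, 1 became 0 (561) with a pseudocount of 0.1, 2 with a minimum of 1, 0 (181) with a minimum of 20, 4 after scaling, 37 with fractions of at least 0.02, 111 in the fit of all 3 groups, and 0 to 1 without 1 library. For isoforms against enzyme-only, 3 became 0 (773) with a pseudocount of 0.1, 59 with a pseudocount of 1, 0 (1024) with a minimum of 1, 5 with a minimum of 20, 0 (432) after scaling, 0 (212) with fractions of at least 0.02, and 0 to 1856 without 1 library. For isoforms against buffer-only, 3221 became 1834 with a minimum of 20, 23 after scaling, 598 with fractions of at least 0.02, and 324 to 2433 without 1 library. Where a group is left with 1 library, that library is assumed to vary like the others. Counts with a minimum of 20 or a fraction minimum rest on fewer features tested.

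With the replicate block, genes called were 29, 3086 and 1 in the 3 comparisons, and isoforms called were 66 against enzyme-only and 3024 against buffer-only. CELF1-204 passed against enzyme-only with the replicate block (limma adjusted p = 0.0155), with a pseudocount of 1 and with a minimum of 20. It did not pass after scaling (limma adjusted p = 0.651). The labels number the enzyme-only libraries 1 and 2 in one field and 2 and 3 in the titles. Deviations of libraries with equal numbers in the former field were correlated over 4801 genes. The correlations were 0.11 between RBFOX2-INSCRIBE and enzyme-only, 0.049 between RBFOX2-INSCRIBE and buffer-only and -0.025 between the controls. Each group gave a single difference, so these values cannot tell whether equally numbered libraries shared a slide.

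After scaling, the sign reversed for TIA1 (-0.16), TIA1-205 (-0.26) and PTBP1-201 (-0.11) against enzyme-only, for PTBP1 (-0.65), ELAVL1 (-0.51), ELAVL1-201 as an isoform (-0.53), PTBP1-201 (-0.50) and PTBP1-203 (-0.60) against buffer-only, and for ELAVL1 (-0.63) and CELF1 (-0.069) between the controls. With fractions of at least 0.02 it reversed for PTBP1, against enzyme-only (-0.22) and between the controls (0.65). Without 1 library it reversed for TIA1 (range -0.16 to 1.42) and TIA1-205 (-0.57 to 1.58) against enzyme-only, the lowest without enzyme-only replicate 2, and between the controls for ELAVL1 (-0.45 to 0.54, the lowest without enzyme-only replicate 3) and PTBP1 (-0.56 to 0.51, above 0 without enzyme-only replicate 2 or buffer-only replicate 2). Without either RBFOX2-INSCRIBE library, none of the 5 members was called against buffer-only (limma adjusted p between 0.0698 and 0.142), with log2 differences between 0.81 and 2.38. In the fit of all 3 groups PTBP1 (limma adjusted p = 0.151), ELAVL1 (0.0806), CELF1-204 (0.214), PTBP1-201 (0.142), the isoform ELAVL1-201 (0.109) and TIA1-205 (0.0903) were not called against buffer-only. Also lost there were PTBP1 and CELF1 with fractions of at least 0.02 (limma adjusted p = 0.623 and 0.198), TIA1-205 with a minimum of 1 (0.0600), and PTBP1-201 and TIA1-205 without either buffer-only library (between 0.0616 and 0.107), while PTBP1-203 passed with a minimum of 20 (0.0252). Without enzyme-only replicate 3, the log2 differences of the 5 members against enzyme-only lay between 1.30 and 1.42, where the median over all genes tested was 1.30. The members' difference in the share near UGCAUG, 3.68 percentage points, was 7.75 with GCAUG and 8.42 with fractions of at least 0.02, 2.75 to 4.62 without 1 library, and between 2.74 and 3.71 with other windows.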
